A study of Mus musculus with 8 samples.

Results

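The transcripts described here encode the MHC class I molecules of the mouse and the machinery that loads them with peptide. Every probe set of the deposited table whose annotation names a single gene among H2-K1, H2-D1, H2-T23, B2m, Tap1, Tap2, Tapbp, Tapbpl, Erap1 and Nlrc5 was taken, which gave 27 of 45101 probe sets and 9 of 18194 genes. H2-T23 had no probe set with a single gene symbol and was not analysed here. The arrays measured RNA from microvessel fragments of newborn mouse brain at postnatal day 1, pulled from dissociated tissue with magnetic beads against the endothelial surface protein PECAM and still carrying their pericytes. In the 4 mutants Pdgfrb, the gene of PDGF receptor beta, was altered by knock-in to encode the D849V form, an activating change whose expression in pericytes the labels state, and the 4 controls were wild type. Both groups were on a 129S/J mixed background. Whether the allele was present in 1 or both copies, and whether a Cre line switched it on, is not given in the sources used here. Each brain gave 1 array, and the values are log2 expression values made with GCRMA.

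Class I molecules display fragments of a cell's own proteins to cytotoxic T cells and natural killer cells. A polymorphic heavy chain pairs with the invariant light chain beta-2-microglobulin, and peptides cut by the proteasome are pumped into the endoplasmic reticulum by the TAP transporter, trimmed there and fitted into the groove with the help of chaperones. Interferons raise transcription of the whole pathway, partly through NLRC5, a regulator that binds class I promoters together with RFX, CREB and NF-Y factors. In healthy brain, class I is low in neurons and easier to detect in vessels and microglia.

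All 9 measured genes rose in the mutant microvessels. Nlrc5 was at least 15.3-fold higher, Tap1 27.7-fold, H2-K1 6.58-fold, H2-D1 5.84-fold, Tap2 5.05-fold, B2m 4.04-fold, Tapbp 3.60-fold, Tapbpl 2.29-fold and Erap1 2.11-fold higher. By limma with Benjamini-Hochberg adjusted p under 0.05, 9 of 9 genes were higher and 0 lower, against 2.66% higher and 1.92% lower among the 11446 genes tested. Every mutant array lay above every control array in all 9 genes, against 4.07% of the genes tested. The median difference of the 9 genes was 2.34 on the log2 scale, and that of all tested genes was -0.11. A gene was tested on its brightest probe set if this read above a log2 value of 4 on at least 4 arrays. All 9 genes passed that filter, and Nlrc5 did so through its mutant arrays alone, so its place in these counts depended on high mutant values. The members were also chosen with earlier results of these data known. The counts therefore describe the 9 genes and are no independent evidence that the pathway stands out.

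**Figure D1:**
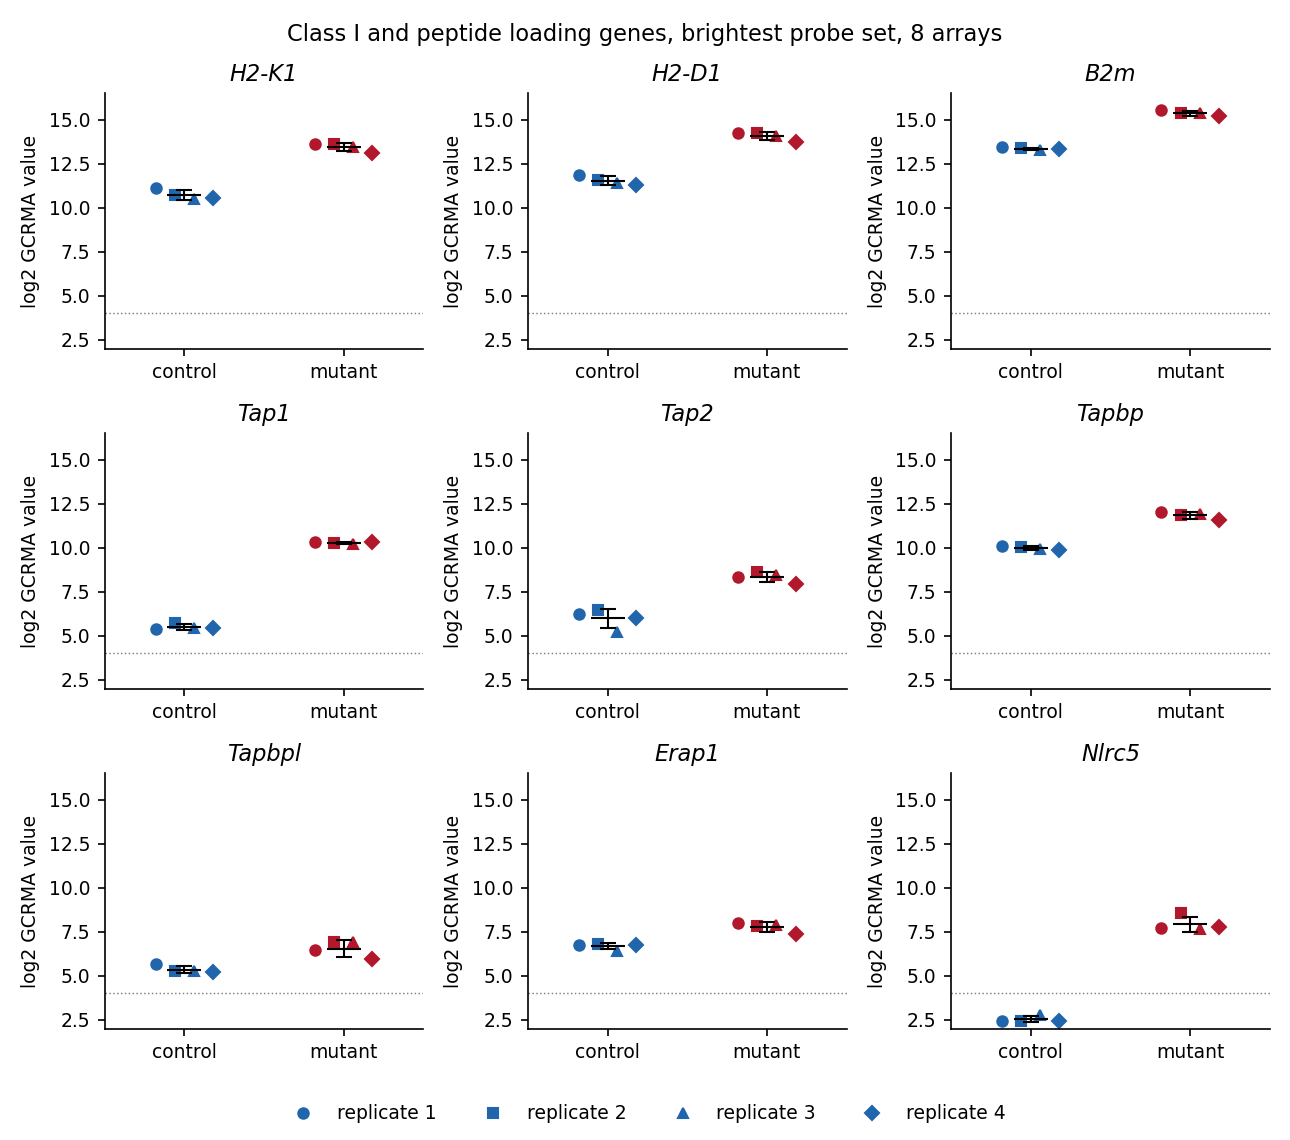
Log2 GCRMA values of the brightest probe set of each gene on the 4 control (blue) and 4 mutant (red) arrays, with symbols for the replicate number and black bars for the mean and SD. The dotted line is the filter level of 4. The groups are apart in every panel, by 0.27 in Tapbpl, the narrowest gap, and by 4.50 in Tap1, and the Nlrc5 controls lie under the filter level.

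Before the genes are taken in turn, the arrays and their tissue are described. Over all probe sets, arrays of one group correlated at 0.988 to 0.995 (Pearson) and arrays of different groups at 0.977 to 0.991. All 12 endothelial and all 10 pericyte markers met the filter, the pericyte marker Anpep with no more than 4 arrays above its level. Cldn5, the tight junction protein claudin-5, read 14.39 ± 0.12 in mutants and 14.57 ± 0.09 in the control group (SD, n = 4 each). Pecam1, the gene of the protein that the beads bind, read 10.53 ± 0.96 and 9.91 ± 0.91, and Rgs5, a pericyte marker, read 14.59 ± 0.19 and 14.66 ± 0.14 (SD, n = 4 each). Pecam1 was the 1 endothelial marker with a positive difference, and 11 were negative. The endothelial median was -0.28 and the pericyte median 0.08, against -0.11 for all tested genes. At an unadjusted limma p under 0.05, 6 endothelial markers were lower and 0 higher, and 4 pericyte markers were higher and 2 lower. After adjustment 2 of the endothelial markers fell and none rose (Erg by 0.63 and Slco1a4 by 0.77 on the log2 scale, limma adjusted p = 0.00561 and 0.0306). Slco1a4 lost its call in 10 of 19 alternatives, those without mutant replicate 1, 2 or 4 or control replicate 2, 3 or 4 among them (limma adjusted p from 0.0505 to 0.0917). Of the pericyte markers Higd1b rose by 0.85 (limma adjusted p = 0.041), a call lost in 11 of 19 alternatives, among them 7 of the 8 that leave out an array (each but control replicate 2, limma adjusted p from 0.0702 to 0.128). The brightest probe set of Pdgfrb fell by 1.01 (limma adjusted p = 0.00132), but its probe sets disagree: the mean of them differed by -0.46 and the one without a suffix by 0.09 (limma adjusted p = 0.144 and 0.876). In RNA from whole fragments a change in the number of cells of a type and a change in the RNA of each cell cannot be told apart.

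The classical heavy chains H2-K1 and H2-D1, which form the peptide groove, were already bright on the control arrays and rose further in the mutants. The brightest probe set of H2-K1 read 13.64, 13.62, 13.46 and 13.11 on mutant arrays 1 to 4 and 11.12, 10.76, 10.53 and 10.54 on control arrays 1 to 4. All mutant values were above all control values, and the lowest mutant value was that of array 4. The difference was 2.72 (SE 0.170, limma adjusted p = 2.6e-05). For H2-D1 the mutant arrays read 14.27, 14.24, 14.08 and 13.73 and the control arrays 11.87, 11.59, 11.40 and 11.28, again with no overlap and with mutant array 4 lowest among the mutants. Its difference was 2.55 (SE 0.166, limma adjusted p = 3.38e-05).

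The size of the H2-K1 difference depended on the probe set. The 4 probe sets of this gene differed by 2.72 (95% interval 2.32 to 3.12), 4.47 (4.13 to 4.82), 4.81 (4.41 to 5.20) and 3.36 (2.92 to 3.81) on the log2 scale, the first being the brightest. The interval of the brightest lay below those of 1425336_x_at (4.47) and 1427746_x_at (4.81). On 1427746_x_at the mutant arrays read 12.43, 12.60, 12.06 and 11.86 and the control arrays 7.57, 7.32, 7.28 and 7.54. The fourth, 1450534_x_at, lay under the filter on all control arrays, so its fold is only bounded, at 5.08-fold or more. All 4 carry the suffix _x_at, which Affymetrix gives to probe sets with probes that match several transcripts, so signal from H2-K1, H2-D1 and other heavy chains cannot be told apart in them.

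H2-D1 had 9 probe sets, of which 5 were bright enough to test. These 5 were all higher, by 2.41 to 3.0, and their 95% intervals overlapped. They include 1426324_at, the tested one without that suffix, which read 10.57, 10.55, 10.17 and 9.51 on the mutant arrays and 7.22, 7.12, 7.38 and 7.17 on the control arrays, a difference of 2.98 (SE 0.229, limma adjusted p = 0.000159 over all probe sets). The other 4 probe sets lay between 2.18 and 3.87 on every array and were not tested. Averaging all 9, of which 4 are dim, lowered the H2-D1 difference to 1.62, and averaging the 4 of H2-K1 raised its difference to 3.84.

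B2m, the gene of the shared light chain, read 15.55, 15.40, 15.39 and 15.21 on the mutant arrays and 13.43, 13.39, 13.31 and 13.35 on the control arrays. The groups were 1.77 apart at their nearest values, and the SD of the controls was 0.05 (n = 4). The difference was 2.02 (SE 0.0927, limma adjusted p = 3.73e-06). The second probe set of B2m, which read 12.63 to 12.85 on controls and 14.58 to 14.87 on mutants, differed by 1.97 (SE 0.0963, limma adjusted p = 9.79e-06 over all probe sets), so both probe sets of this gene gave nearly the same change. This light chain is needed by every class I heavy chain and by most of their relatives.

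The promoters of the members that moved together can be read beside these values. Windows of 300 bases, from 250 before to 50 after the annotated start, were taken from RefSeq (build GRCm38.p6) and found for 6 of the 9 genes: H2-K1, H2-D1, B2m, Tap1, Tapbp and Erap1. Both strands were searched for the core of the interferon-stimulated response element (GAAA, any 2 bases, GAAA), for the shorter interferon regulatory factor core AANNGAAA that lies within it, for the STAT-binding core TTCNNNGAA, for the NF-kB-binding enhancer A of class I genes and for the NF-Y-binding letters CCAAT. The enhancer A letters searched are the capitals that open the H2-K1 stretch printed next. These motifs were chosen with the results known, and the shorter core after the sequences had been seen. The following stretches are shown because they hold the matches, in capitals, to the enhancer A letters and the 2 interferon-related cores.
H2-K1, chr17:34000430-34000458, minus strand: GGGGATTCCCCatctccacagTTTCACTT
H2-D1, chr17:35262923-35262951, plus strand: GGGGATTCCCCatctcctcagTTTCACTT
B2m, chr2:122147539-122147568, plus strand: taagaacatGAAACTGAAAatgggaaagtc
Erap1, chr13:74639838-74639867, plus strand: tccaccttcacTTTCACTTTCggtcccggg
H2-K1 and H2-D1 held enhancer A and the shorter core 10 bases apart, in stretches identical at 28 of 29 bases. B2m and Erap1 held the longer core, beginning 139 and 4 bases before the start, and that of Erap1 ran across the start.

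Across all 32851 RefSeq promoter windows, 3.44% held the longer core, 23.9% the shorter, 8.3% the STAT core, 0.0304% (10 windows) enhancer A and 37.4% CCAAT. Of the 6 member genes, 2 held the longer core, 4 the shorter, 0 the STAT core, 2 enhancer A and 5 CCAAT. The enhancer A letters are those of the H2-K1 promoter, so a match there was fixed in advance, and the H2-D1 stretch is almost the same. The 10 windows with enhancer A include those of H2-K1 and H2-D1. No enrichment was tested, and these counts do not show one. A match describes letters in the window and not binding. The 250 bases before the start of H2-D1 (chr17:35262844-35263093, plus strand, GRCm38.p6) are given to show how the marked letters sit in this promoter, with enhancer A beginning 171 bases and the shorter core 150 bases before the start.
H2-D1 promoter: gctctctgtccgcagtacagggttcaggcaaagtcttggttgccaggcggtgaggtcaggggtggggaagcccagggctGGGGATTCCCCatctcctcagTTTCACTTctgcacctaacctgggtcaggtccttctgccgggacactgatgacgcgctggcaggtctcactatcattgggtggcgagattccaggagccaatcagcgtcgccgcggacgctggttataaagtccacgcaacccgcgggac

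Tap1 and Tap2 encode the subunits of the peptide transporter of the endoplasmic reticulum, which works only as their dimer. Tap1 read 10.36, 10.29, 10.23 and 10.31 on the mutant arrays and 5.40, 5.73, 5.44 and 5.44 on the control arrays. Its mutant values were the most alike of all 9 genes, with an SD of 0.05 (n = 4), and mutant array 4 lay within the range of the other 3. The difference was 4.79 (SE 0.0961, limma adjusted p = 3.54e-08). The other 3 probe sets of Tap1 lay at 2.18 to 2.19 on every array, the floor of the values, and averaging all 4 lowered the difference to 1.20.

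Tap2 read 8.32, 8.64, 8.44 and 7.96 on the mutant arrays and 6.25, 6.49, 5.24 and 6.04 on the control arrays, without overlap, the widest spread being among the controls. The difference was 2.34 (SE 0.268, limma adjusted p = 0.00139), with a 95% interval of 1.72 to 2.95 that lay below that of Tap1, 4.57 to 5.01. The 2 probe sets have different probes, and no test of the difference between the genes was made.

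Tap1 shares its promoter with Psmb9, an immunoproteasome subunit transcribed in the opposite direction. Psmb9 read 10.85 ± 0.13 in mutants and 5.78 ± 0.41 in the control group (SD, n = 4 each), a rise of 5.07 (SE 0.195, limma adjusted p = 1.47e-06), beside the 4.79 of Tap1. The 225 bases between the annotated starts (chr17:34187331-34187555, plus strand, GRCm38.p6) are shown because both neighbours rose. They held none of the searched letters other than CCAAT, 222 bases before the start of Tap1.
Tap1 and Psmb9 promoter: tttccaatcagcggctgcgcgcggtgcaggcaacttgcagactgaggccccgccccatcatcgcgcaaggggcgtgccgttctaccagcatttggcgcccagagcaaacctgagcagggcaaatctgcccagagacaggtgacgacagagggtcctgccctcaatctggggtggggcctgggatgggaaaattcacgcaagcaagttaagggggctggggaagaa

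Tapbp encodes tapasin, which holds empty class I molecules at the transporter until a peptide fits. It read 12.02, 11.87, 11.94 and 11.56 on the mutant arrays and 10.09, 10.07, 9.95 and 9.88 on the control arrays, with no overlap. The difference was 1.85 (SE 0.116, limma adjusted p = 2.6e-05). Its dimmer probe set, 1450378_at, read 5.86, 5.47, 5.38 and 3.63 in mutants and 4.35, 2.82, 2.72 and 3.16 in controls. Here mutant array 4 lay below control array 1, and the difference of 1.83 (95% interval 0.59 to 3.06) did not pass over all probe sets (limma adjusted p = 0.154).

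Tapbpl encodes the tapasin relative TAPBPR, which exchanges peptides on class I molecules away from the transporter. Mutant arrays read 6.46, 6.91, 6.90 and 5.94 and control arrays 5.67, 5.27, 5.27 and 5.22, so that mutant array 4 and control array 1 were 0.27 apart. The difference was 1.20 (SE 0.225, limma adjusted p = 0.0219), and its other probe set lay at the floor on every array. This was the least firm of the 9 calls: without mutant replicate 2 or 3, or without control replicate 2, 3 or 4, the limma adjusted p was 0.0545, 0.0669, 0.0662, 0.0724 and 0.0797, with differences from 1.08 to 1.17. It was 0.0781 with no filter on low values, and 0.60 was the difference when its 2 probe sets were averaged.

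Erap1 encodes the aminopeptidase that trims peptides in the endoplasmic reticulum to class I length. It read 7.99, 7.82, 7.91 and 7.40 on the mutant arrays and 6.77, 6.82, 6.44 and 6.77 on the control arrays. The groups did not overlap, and the difference of 1.08 (SE 0.150, limma adjusted p = 0.00431) was the smallest of the 9 genes. Its second probe set differed by 0.95 (SE 0.148, limma adjusted p = 0.0129 over all probe sets), with mutant arrays at 7.27 to 7.83 and control arrays at 6.35 to 6.85.

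Nlrc5, the transcriptional regulator of the class I genes, read 7.75, 8.57, 7.64 and 7.76 on the mutant arrays and 2.46, 2.46, 2.80 and 2.46 on the control arrays, all under the filter. The fitted difference of 5.39 (SE 0.208, limma adjusted p = 1.47e-06) depends on those dim values, so the bound of 15.3-fold, set against the filter level of 4, is the size that the arrays resolve. Mutant array 2 stood above the other 3 mutant arrays.

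**Figure D2:**
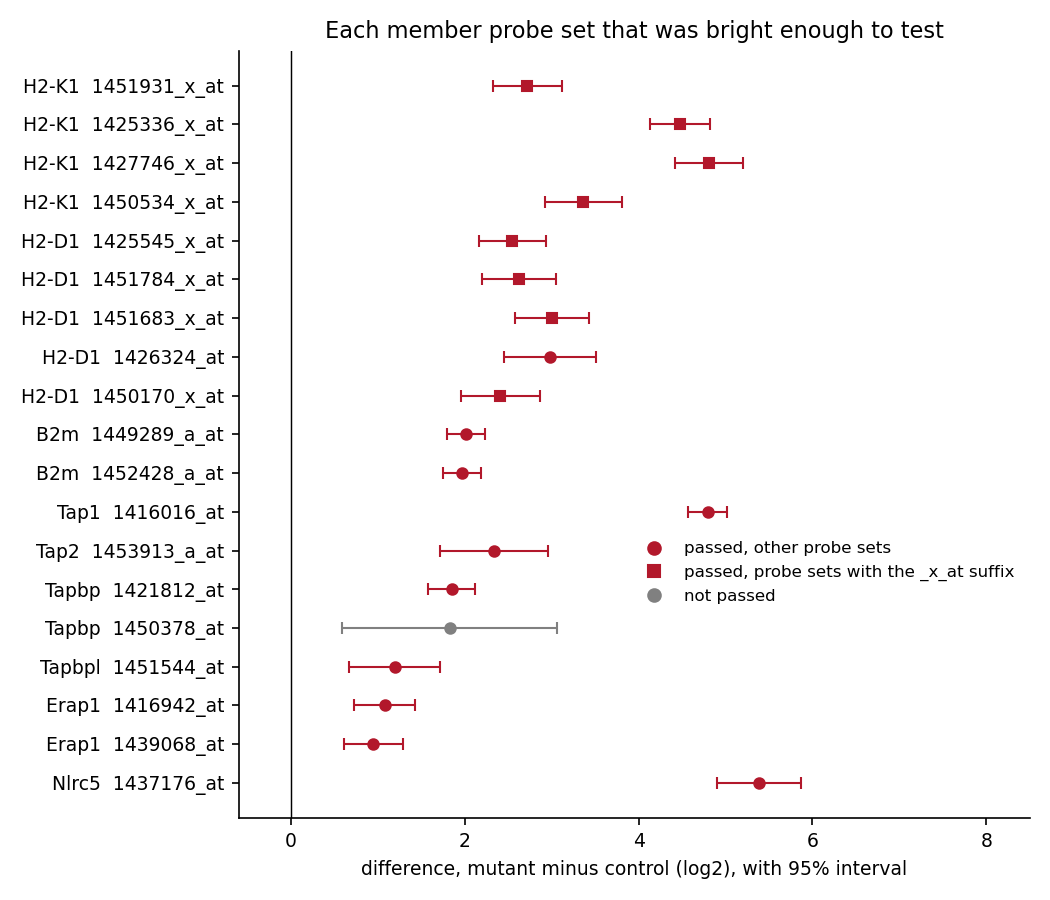
Difference between mutant and control arrays (log2, horizontal axis) with its 95% interval for each of the 19 probe sets of these genes that were tested, by gene and probe set. Squares are probe sets with the suffix _x_at. All 19 lie above 0, from 0.95 for a probe set of Erap1 to 5.39 for Nlrc5, and 1 probe set of Tapbp (grey) did not pass.

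Counted singly, 18 of the 19 tested probe sets rose and none fell, against 1.85% of the 22310 probe sets tested that rose. The 18 also did not overlap between the groups, against 3.27% of the probe sets tested. Among the 18, the probe set of Nlrc5 and 1450534_x_at of H2-K1 met the filter through their mutant arrays alone. Their place in these counts therefore depended on high mutant values. As for the genes, the counts describe members chosen with earlier results known. The other 8 probe sets of these genes were under the filter, 6 of them at the floor on all arrays, and none of the 8 separated the groups. In 7 of the 9 genes mutant array 4 had the lowest value of the mutants, the exceptions being Tap1 and Nlrc5. The mean over the 9 genes was 10.71, 10.82, 10.67 and 10.33 on mutant arrays 1 to 4 and 8.12, 8.06, 7.82 and 7.89 on control arrays 1 to 4.

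**Figure D3:**
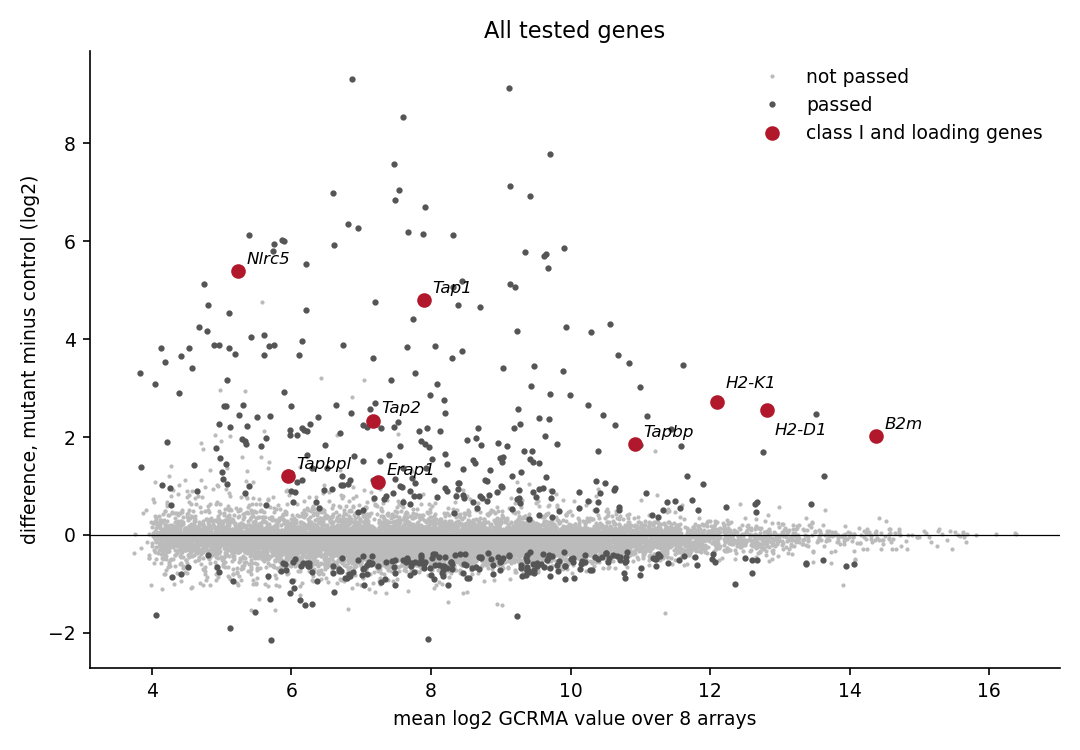
Difference between mutant and control arrays (log2) against the mean log2 GCRMA value over the 8 arrays for all 11446 tested genes, with genes that passed in dark grey and the 9 class I and loading genes in red. Tap1 is among the large rises, at 4.79, and the point for Nlrc5 is placed by control values under the filter, while B2m, H2-D1 and H2-K1 are at the bright end, with rises of 2.02, 2.55 and 2.72.

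Microglia and macrophages, which also carry class I, gave more signal in the mutants. Of 16 tested markers of these cells 12 rose and none fell, among them Ctss by 2.26, C1qa by 2.38, Fcer1g by 2.18 and Aif1 by 3.31 (highest limma adjusted p = 0.00198). The 4 that did not pass were P2ry12, Laptm5, Cd163 and Mrc1, with positive differences (limma adjusted p from 0.133 to 0.207). Tmem119 was under the filter on every array, and its groups overlapped. The summed signal of the 19 measured markers, as log2 of the sum, ran from 13.77 to 14.55 in mutants and from 12.36 to 12.92 in controls, and Itgam was at the floor. Ptprc, the pan-leukocyte marker CD45, read 7.40 ± 0.48 in mutants and 5.56 ± 0.68 in the control group (SD, n = 4 each) and rose by 1.84 (limma adjusted p = 0.0248), a call that was lost in 9 of 19 alternatives, among them those without mutant replicate 1, 2 or 3 or control replicate 2 or 3 (limma adjusted p from 0.0624 to 0.0855). The mean of the markers was 8.77, 8.55, 8.77 and 8.03 on mutant arrays 1 to 4, lowest on array 4, which was also lowest in 7 of the 9 class I genes and, of the mutants, in the mean of 10 of 13 lists, endothelial markers among them (11.57, against 11.98 to 12.02 on the other 3). The part of these cells in the class I differences was not tested.

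Of the 17 measured markers of T and natural killer cells, 10 were at the floor on all arrays, including Cd3d, Cd3e, Cd3g, Cd4, Cd8a and Cd8b1, and Cd3e read 2.18 on every array. Their summed signal, as log2, was 7.51 to 9.36 in mutants and 7.13 to 8.20 in controls. The brightest marker in that sum was Gzma on mutant arrays 1 to 3 and Eomes on the other arrays. The 1 marker bright enough to test, Eomes, which neural progenitors also express, had a mean of 6.38 in both groups and did not pass. Gzma, a granule protease named here after its values were seen, read 8.92, 8.0, 8.07 and 2.58 on the mutant arrays and 2.22 to 2.53 on the control arrays. It was above the filter on 3 arrays, all mutant, and so was not tested. Without mutant replicate 4 it was tested and passed, at 6.01 (limma adjusted p = 7.63e-06). It entered that test through its mutant arrays, and its control values were all under the filter. Other dim markers, named here after their values were seen, were not tested. On mutant arrays 1 to 4 Klrd1 read 3.73, 2.99, 2.69 and 2.19, against 2.19 on every control array. Gzmb read 4.82, 3.55, 2.19 and 2.19, against 2.19 to 2.20. Nkg7 read 3.14, 2.22, 3.62 and 2.19, against 2.18 to 2.20. Cd247 was lower in the mutants, at 3.13 ± 0.23 against 3.45 ± 0.26 (SD, n = 4 each). Of 10 measured markers of B and dendritic cells 6 were at the floor, and none of the 2 tested passed, with 0 at an unadjusted p under 0.05 (Zbtb46 -0.17 and Cd79b 0.52, limma adjusted p = 0.443 and 0.399). Their summed signal was 7.82 to 8.47 in mutants and 7.97 to 8.11 in controls.

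The other steps of the pathway did not all give calls. Over all tested genes 2.66% rose and 1.92% fell, so a short list without a call is not set apart from other genes. Of the 23 other heavy chains listed, 9 had a probe set of their own and 4 were bright enough to test, of which 3 rose. H2-M3, which presents formylated peptides, read 9.57 ± 0.22 in mutants and 6.82 ± 0.28 in the control group (SD, n = 4 each) and rose by 2.75 (SE 0.165, limma adjusted p = 1.99e-05). H2-Q5 was under the filter on all control arrays and entered the test through its mutant arrays alone. It rose at least 4.85-fold. H2-T24 read 8.24, 8.20, 6.90 and 6.06 on the mutant arrays and 4.02, 5.07, 4.67 and 3.94 on the control arrays, a rise of 2.93 (limma adjusted p = 0.015). That call was lost with no filter (limma adjusted p = 0.0682), without control replicate 1 or 4 (0.0523 and 0.057) and at a threshold of 0.01. The fourth, H2-Bl, was under the filter on all control arrays and entered the test through its mutant arrays, which read 4.21 to 6.38. It did not pass (limma adjusted p = 0.102). Without mutant replicate 1, the highest at 6.38, H2-Bl passed, at 0.95 (limma adjusted p = 0.00899). The class I-like molecules, which share the fold but not the peptide cargo, gave no call in 4 tested (1 at an unadjusted p under 0.05). Fcgrt, the neonatal Fc receptor, read 10.42 ± 0.31 and 10.41 ± 0.37, and the lipid-presenting Cd1d1 9.08 ± 0.19 and 9.33 ± 0.12, in mutants and controls (SD, n = 4 each). Hfe, a regulator of iron uptake, differed by 0.55 (limma adjusted p = 0.0808) and passed without control replicate 4.

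The proteasome cuts the peptides that class I presents, and interferons exchange its catalytic subunits for those of the immunoproteasome. Of 5 immunoproteasome and PA28 genes tested, 4 rose: the catalytic subunits Psmb8 by 5.12 (SE 0.106), Psmb9 by 5.07 and Psmb10 by 2.86 (SE 0.180), and the activator subunit Psme1 by 1.20 (SE 0.0894), the limma adjusted p being no higher than 7.89e-05 for any of them. The assembly factor Pomp, the fifth, differed by 0.15 (limma adjusted p = 0.507). None of 14 standard proteasome subunits passed in limma's test, with 1 at an unadjusted p under 0.05. Differences were positive in 12 of the 14, against 3533 of the 11446 tested genes. The median was 0.10, against -0.11 for all tested genes. Differences of the 14 subunits ran from -0.17 to 0.27. The brightest, Psmb4, read 13.43 ± 0.15 in mutants and 13.33 ± 0.11 in controls, and Psma6 13.09 ± 0.16 and 13.17 ± 0.15 (SD, n = 4 each). Of 5 cytosolic peptidases, which shorten or destroy peptides before transport, none passed in limma's test (1 at an unadjusted p under 0.05). Blmh differed by -0.20 and Npepps by -0.01, while Lap3, an interferon-inducible aminopeptidase named here after its values were seen, differed by 0.71 (limma adjusted p = 0.06) and passed without mutant replicate 4 or control replicate 1, at 0.85 and 0.82.

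General folding factors of the endoplasmic reticulum, among them the partners of tapasin in the loading complex, gave no call either. Of 12 tested none passed in limma's test, with 2 at an unadjusted p under 0.05, and the differences ran from -0.22 to 0.34. The chaperones Hspa5 and Hsp90b1, the brightest, differed by 0.09 and 0.19. Calr, calreticulin, read 13.30 ± 0.15 in mutants and 13.17 ± 0.14 in controls, and Pdia3, the disulfide partner of tapasin, 12.55 ± 0.30 and 12.35 ± 0.30 (SD, n = 4 each); these partners were named for their role, outside the rule for named genes. The median of the folding list was 0.07, against 2.34 for the 9 genes and -0.11 for all tested genes.

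Among 12 tested regulators of class I promoters 2 rose and none fell. Irf1, an interferon-induced activator of class I genes, read 8.68 to 9.46 on the mutant arrays and 6.66 to 7.44 on the control arrays and rose by 2.12 (SE 0.211, limma adjusted p = 0.000575). Irf9, the DNA-binding part of the interferon-activated complex ISGF3, rose by 1.87 (SE 0.170, limma adjusted p = 0.000322). Its partner Stat2 read 7.67, 7.95, 6.97 and 4.62 in mutants and 5.07, 2.84, 3.59 and 3.96 in controls, which overlap, and did not pass (2.94, limma adjusted p = 0.0738). Without mutant replicate 4 it did, at 3.66 (limma adjusted p = 0.00669), as it did with its probe sets averaged and with Y-linked genes as a covariate (limma adjusted p = 0.0318 and 0.0417). The factors that NLRC5 works with on class I promoters gave no call: Rfx5 differed by -0.36, Rfxap by -0.19, Rfxank by -0.12, Creb1 by -0.34, Nfya by -0.40, Nfyb by 0.04 and Nfyc by -0.03, with limma adjusted p from 0.116 to 0.871.

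**Figure D4:**
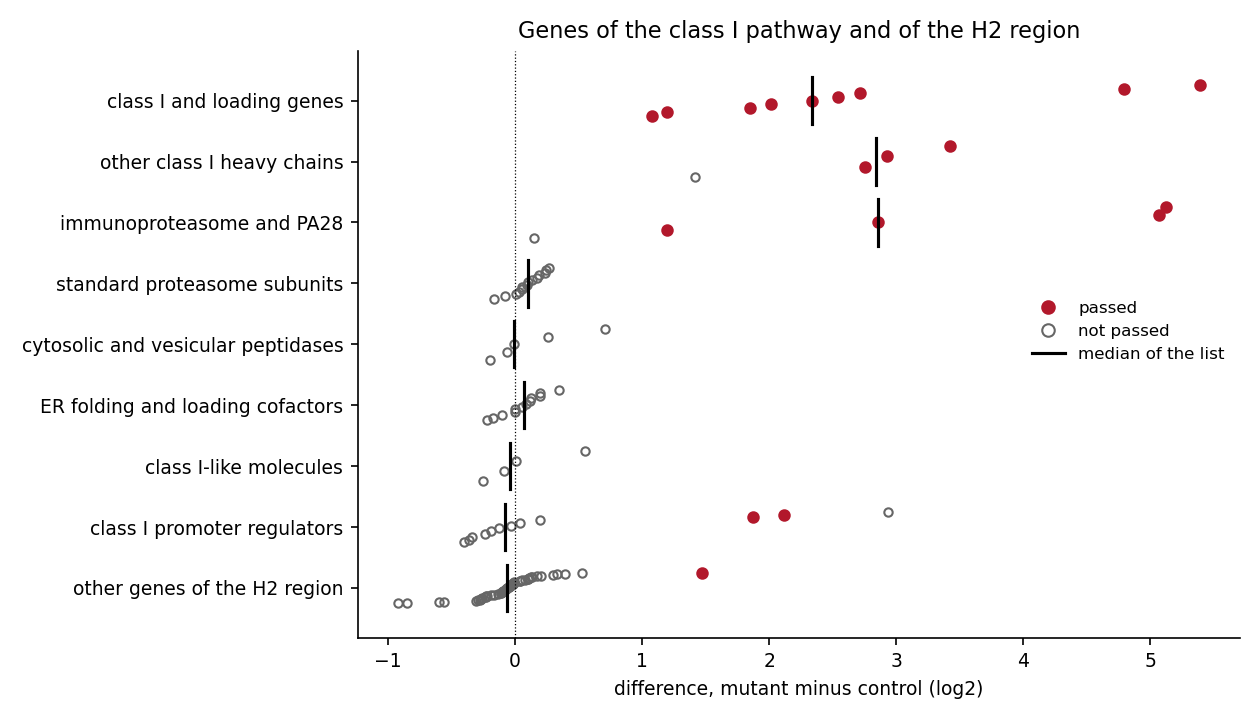
Difference between mutant and control arrays (log2) for the tested genes of each list, filled red where a gene passed, with the median of the list as a black bar. The 9 class I and loading genes, the other heavy chains and the immunoproteasome genes lie to the right with medians of 2.34, 2.84 and 2.86, and the medians of the other 6 lists lie between -0.08 and 0.10. Nlrc5 and, of the other heavy chains, H2-Q5 and H2-Bl entered the test through their mutant arrays alone.

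Of the members, 5 lie near each other in the H2 region of the mouse genome, so their neighbours were read as well. Along the gene order from Tapbp to H2-D1 in RefSeq, 60 genes were tested, of which 14 rose and none fell, with a median difference of 0.04. The 14 were Tapbp, H2-K1, Tap1, Tap2, H2-D1, the immunoproteasome genes Psmb8 and Psmb9, the class II genes H2-Ab1, H2-Aa and H2-Eb1, the complement genes Cfb and C2, and Aif1 and Lst1, which are expressed in myeloid cells. A list of 66 other genes of the region and its flank, chosen with earlier results known, held no class I, class II or immunoproteasome gene and also none of Cfb, C2, Lst1 and Aif1, which all rose, so its counts do not stand for all neighbours. Of its 54 tested genes, 53 did not pass, 7 of them at an unadjusted p under 0.05. Daxx, a nuclear histone chaperone that lies in the flank, outside the stretch from Tapbp to H2-D1, rose by 1.47 (SE 0.145, limma adjusted p = 0.000532).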

How the data were processed

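The authors deposited 1 log2 value per probe set and array, which per the submitters' processing notes came from GCRMA, with no version or options given in the sources used here. GCRMA corrects background by probe sequence, quantile-normalizes and summarises probes, so dim probe sets collect at a floor of 2.18. Per the labels' protocols, biotin-labelled cRNA was made from 6 ug of total RNA. Arrays have no read depth; 4 per group limit the precision.

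Of the 45101 probe sets, 34958 had 1 gene symbol, 932 several and 9211 none. Genes were represented by their brightest probe set, and the 11446 genes that exceeded a log2 value of 4 on at least 4 arrays (3 when an array was left out) were kept. Mutant and control arrays were compared by a two-sided test in limma 3.58.1 (lmFit, eBayes; R 4.3.3), with no covariate and with Benjamini-Hochberg adjustment at 0.05 over all genes, or over all 22310 bright probe sets where probe sets were tested singly. The fit was tested on simulated data. A group wholly under the filter was set to 4 for a lower bound of the fold. At the floor means within 0.5 of the lowest value on all arrays.

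The members and lists were chosen with earlier results of these data known. Named are all members, Ptprc and Cd3e. Each other list gave up to 4 passing genes by smallest p, or its 2 brightest genes if it had no call. Cldn5, Pecam1, Rgs5 and the RFX, CREB and NF-Y genes were named outside this rule. Others are said to be chosen later or for their role, or are named where a count or an alternative turned on them. Alternatives were no filter, a filter at 6, a second quantile normalization, arrays centred on the median of the tested genes, the mean of a gene's probe sets, the replicate number as a block, preference for probe sets without a suffix, array weights, Y-linked genes as a covariate, trend and robust settings of eBayes, a threshold of 0.01 and each array left out in turn. No litter, sex or preparation day is given in the sources used here, so p-values measure the spread between these brains. RefSeq tables of GRCm38.p6 served for gene order and promoters.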

Additional observations from a re-analysis of the deposited data

Results flagged for a closer look

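Chance alone gives an array far from the other 3 in about 1 of 20 groups of independent normal values. Of the 18 groups of 4 arrays in the 9 genes, 5 held such an array. These were the Tap1 value of control array 2 (5.73, others 5.40 to 5.44), the Tapbpl value of control array 1 (5.67, others 5.22 to 5.27), the Erap1 value of control array 3 (6.44, others 6.77 to 6.82), the Nlrc5 value of control array 3 (2.80, others 2.46) and the Nlrc5 value of mutant array 2 (8.57, others 7.64 to 7.76). The direction of each of these genes was the same without that array, and the Nlrc5 controls are all under the filter. The other Nlrc5 controls had equal values, so any different value would be flagged there and the chance rate does not hold for that group.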

How the results depend on the processing

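No member gene changed direction under the alternatives tried, and 8 or 9 of the 9 passed in each. Tapbpl was the gene that lost its call, in 9 of 19 alternatives, counting the filter at 6, where it was not tested. Its limma adjusted p ran from 0.000313, with array weights, where it passed, to 0.0797. Of the member probe sets 15 to 19 passed. The replicate numbers did not pair the arrays (correlations of same-numbered deviations from -0.48 to 0.30); with the number as a block 8 member genes passed, Tapbpl did not (limma adjusted p = 0.0654), and 259 genes passed in all (221 higher, 38 lower), with 0 endothelial and 1 pericyte marker. Over all genes 524 passed (304 higher, 220 lower), 302 to 643 with an array left out, 246 at a threshold of 0.01, 3158 with array weights (895 higher, 2263 lower) and, with arrays centred, 336 higher and 115 lower.

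Counts by list moved as follows, the cause not being tested. With array weights 1 class I-like, 5 folding, 4 standard proteasome, 1 peptidase, 4 regulator, 10 H2 region, 6 endothelial and 6 pericyte genes passed. With trend and robust settings 1 folding, 1 peptidase and 4 endothelial genes passed. With centred arrays 1 class I-like and 1 peptidase gene passed, as did 1 peptidase gene with the filter at 6 and with the second quantile normalization. With no filter, with Y-linked genes as a covariate and at a threshold of 0.01, 1 endothelial and 1 pericyte gene passed; with the mean of the probe sets and without suffixed ones, 1 pericyte gene. With an array left out, the ranges were 8 to 9 member genes, 16 to 19 member probe sets, 2 to 4 other heavy chains, 0 to 1 class I-like genes, 0 to 0 folding and standard proteasome genes, 4 to 4 immunoproteasome genes, 0 to 1 peptidases, 2 to 3 regulators, 1 to 1 H2 region genes, 10 to 12 microglia markers, 0 to 1 T and natural killer cell markers, 0 to 0 B and dendritic cell markers, 1 to 2 endothelial and 1 to 4 pericyte markers.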
